A study of Sus scrofa with 48 samples.

Results

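Among the circRNAs of boar seminal plasma extracellular vesicles (SPEVs), 913 of 17379 (5.25%) spanned less than 1000 bp of the genome and had reads in 2 to 11 of the 24 long RNA libraries. The span is the distance from the start to the end of a circRNA on the pig genome Sscrofa11.1, and a circRNA was detected in a library when it had at least 1 back-splice junction read there. Both limits were set on the table of junction reads itself, so the number of libraries and the level of these circRNAs describe how they were chosen. Of the 8010 circRNAs in 2 to 11 libraries, the other 7097 had a span of 1000 bp or more and are the comparison used below. A further 1100 circRNAs under 1000 bp had reads in 1 library, and 150 had reads in 12 or more libraries.

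The libraries came from boars aged 14 to 36 months, Yorkshire by the labels and large white by the study's text, 12 of high sperm motility (H group) and 12 of low motility (L group), and each boar gave 1 library. Per the labels, total sperm motility averaged 0.94 for the H boars and 0.40 for the L boars. SPEVs were collected by ultracentrifugation and filtration, so they may come from any organ that contributes to seminal plasma. The libraries held 128644 to 610615 junction reads, with no difference between the groups beyond the spread of the boars (p = 0.943 in a two-sided permutation test). A count of 0 allows a level of up to 4.91 to 23.3 RPM at these depths (3 reads, counting error only). RPM scales the reads of a circRNA to a library total of 1e+06 junction reads. A library is named below by its group and replicate number.

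A circRNA forms when the splicing machinery joins the end of an exon back to the start of the same or an earlier exon. The ring has no free ends, resists exonucleases and is carried in body fluids inside vesicles. Most circRNAs hold coding exons of their host gene, and long flanking introns with inverted repeats are known to favour back-splicing. In the male tract such vesicles fuse with sperm and hand over RNA and proteins.

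The junction is what identifies a circRNA. The sequences below are from the Sscrofa11.1 genome of RefSeq, read 5′ to 3′ on the strand of the circRNA, with the last 15 bases of the ring followed by its first 15. The 5 bases on each side of the junction are in capitals. The first set holds the 7 circRNAs called in the test of junction reads below, and MAP9 is the 1 that was lower in the L group.
CCAR1, exons 6 and 7: agccacagcaGAAAGTGCTGtcaaagggaa
BBS2, exons 10 and 11: gggttacagaAGCAGGCCGAactgagcagt
EARS2, exon 2: tgctggaatgGGCAGGCTTCttgcacctgg
Intergenic, chromosome 13: gagcaggcttTACAGGAACCagtggccttt
TTC17, exons 17 and 18: ctcctgggccACAGGGTACAgtggttgagg
CAPNS1, exons 7 to 9: tggatgccatGTTCCAGTGAcacaaccggc
MAP9, exons 9 and 10: tatgaaaagtGGCTGGCTTTtgaaaaatgg
The second set shows host genes whose short circRNAs share an end. The 3 LRRC71 rings start at the same exon and close after 1, 2 or 3 exons, so the right part is the same and the left part differs. The 2 COG3 rings close at the same end and begin at different starts.
LRRC71, 1 exon: aaggagaagtTGGGGCCTTCcaactcccga
LRRC71, 2 exons: aggccagcaaGGGGACCTTCcaactcccga
LRRC71, 3 exons: ctcctggagtCAGAGCCTTCcaactcccga
COG3, ring of 210 nt: gaaactattaACACAGAGCAgtgtgatgct
COG3, ring of 241 nt: gaaactattaACACAACAGAtgagggatta

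The short circRNAs were mostly rings of 1 or 2 annotated coding exons. By the genes of NCBI Annotation Release 106, 833 of the 913 (91.2%) were exonic, 40 (4.38%) intronic, 28 (3.07%) intergenic and 7 (0.767%) antisense to a gene, and 5 lay on unplaced scaffolds. The exonic share was 92.8% among the longer circRNAs. In 804 short circRNAs (88.1%) both ends lay exactly on exon edges of a transcript. Of these, 260 (32.3%) held 1 exon, 490 (60.9%) held 2, 53 (6.59%) held 3 and 1 held 4 or more. Among the longer circRNAs, 0.648% held 1 exon and 48.6% held 4 or more, which follows in part from the limit on span. The rings had a median spliced length of 252 nt (quartiles 201 and 328), against 462.5 nt for the longer ones. In 668 of the 804 (83.1%) all bases were coding, against 80.6% of the longer circRNAs. A ring began at the second exon of its transcript in 153 cases (19.03%) and at the first exon in 1.

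The sequence around the short circRNAs also differed from that of the longer ones, as a description of 2 sets of different span. The median GC content of the span was 44.6% (quartiles 38.2% and 52.9%), against 39.3% for the longer circRNAs (quartiles 36.9% and 43.0%). Repeats covered a median of 9.92% of the span, against 36.2%. The median intron before the ring was 3748 bp and the median intron after it 3321.5 bp, against 6649 bp and 5797 bp for the longer circRNAs. The spans hold less intron than those of longer circRNAs, and their part in the GC and repeat values was not tested. All 908 circRNAs on placed chromosomes had the AG and GT of spliced introns outside their ends, which the callers require.

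**Figure D1:**
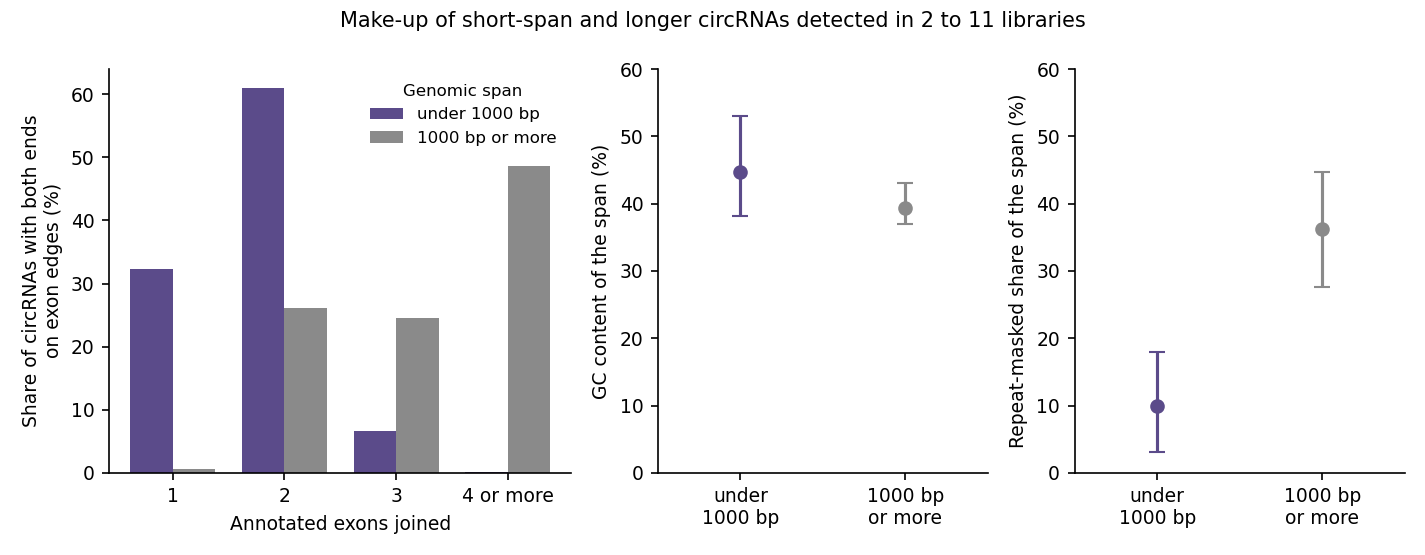
Number of annotated exons (left, share of circRNAs with both ends on exon edges), GC content (middle, %) and repeat-masked share (right, %) of the genomic span for short-span and longer circRNAs detected in 2 to 11 libraries; points are medians and bars are quartiles over circRNAs. Rings of 1 or 2 exons made up 32.3% and 60.9% of the short-span circRNAs, and 0.648% and 26.2% of the longer ones.

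Most host genes gave a single short circRNA. A host gene was found for 873 of the 913, and these came from 801 genes, of which 737 had 1 short circRNA, 56 had 2 and 8 had 3. In 204 cases (23.4%) the short circRNA was the only circRNA of its host in the whole table, against 573 of 6821 (8.40%) of the longer ones. An end was shared with another circRNA by 425 (46.5%) of the short circRNAs and by 72.6% of the longer ones. The 8 hosts with 3 short circRNAs were ASH1L, CCAR1, CNOT1, COG3, LRRC71, MAN2B2, SMCHD1 and USP34, and they are listed because no host reached 4. CNOT1 encodes the scaffold of the deadenylase complex, COG3 a subunit of the Golgi tethering complex, SMCHD1 a protein of chromatin silencing and USP34 a deubiquitinase.

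Hosts with a shared end were described by the libraries and reads of each junction. For LRRC71, the ring of 2 exons (chr4:93167325-93167765, minus strand) had reads in 5 H and 5 L libraries with a mean of 111 RPM over all 24. The ring of 1 exon had reads in 1 H and 1 L library (8 and 56 reads), and the ring of 3 exons in 2 H libraries (44 and 85 reads). For COG3, the ring of 241 nt (chr11:21807483-21808388, minus strand) was detected in 7 libraries and that of 210 nt in 3, with 273 reads in H6, 181 in L3 and 21 in L12. Their mean levels over 24 libraries were 74.95 and 51.6 RPM, and L3 held both, with 187 and 181 reads. A MAN2B2 pair that closes at the same end (chr8:4173269-4173521 and chr8:4173330-4173521, plus strand) had 35.8 and 33.3 RPM, the first with reads in 1 H and 3 L libraries and the second in 2 H libraries.

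Where a short circRNA was detected, its reads were rarely near the limit of detection. The 913 circRNAs had 3711 values above 0 among 21912 (16.9%), and these summed to 339509 reads, 4.22% of all circRNA junction reads. The median value above 0 was 63 reads (quartiles 34 and 115). Only 106 values (2.86%) were under 10 reads, none was a single read and the smallest was 2. The largest was 1179 reads (2160 RPM) in L3 for a CUX1 ring of 1 exon (chr3:9628810-9629115, plus strand), which had 9 reads in H5, 45 in H11, 82 in L8, 89 in L10 and 0 in the other libraries. CUX1 is a transcription factor of the homeobox family.

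Most short circRNAs had reads in few libraries. Of the 913, 332 had reads in 2 libraries, 175 in 3, 120 in 4 and 286 in 5 to 11. The mean RPM over the libraries with reads had a median of 172.9 among circRNAs of 2 libraries, 252 among those of 6 and 350.3 among those of 11. Just outside the limits, the 1100 short circRNAs in 1 library had a median of 152.3 RPM there, and the 16 in 12 libraries a median of 339.8 RPM where detected. Along the span, 11 short circRNAs within 10 bp of the limit had a median of 24.6 RPM over all libraries, and 9 circRNAs that passed it by less than 10 bp had 60.0 RPM. The member nearest to the limit was a XPNPEP3 ring of 999 bp (6 libraries, 85.6 RPM), and the circRNA next to it a QRICH2 ring of 1000 bp (2 libraries, 9.66 RPM).

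**Figure D2:**
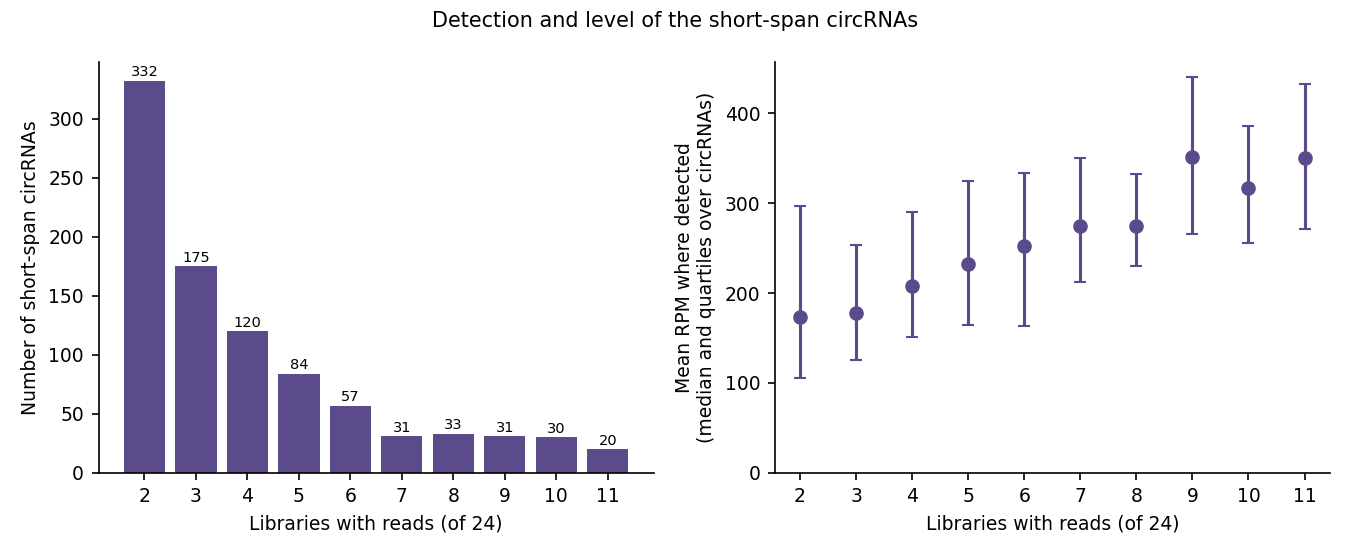
Number of short-span circRNAs by the number of libraries with reads (left), and mean RPM over those libraries (right, median and quartiles over circRNAs). The number fell from 332 in 2 libraries to 20 in 11, and the median level where detected lay between 172.9 and 351.7 RPM.

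Within single libraries, the detected short circRNAs had a lower median level than longer ones of the same detection in 19 of 24 libraries. The median RPM of the detected short circRNAs averaged 276 ± 161 (SD, n = 24 libraries), and that of the longer ones 285 ± 130. The difference of -8.69 RPM was smaller than its spread (two-sided permutation of signs within libraries, p = 0.488). In the L group alone the difference was -29.8 RPM (p = 0.00091, lower in 11 of 12), and in the H group 12.4 RPM (p = 0.698, lower in 8 of 12). The mean of the pooled difference rested on H1, where the short circRNAs had a median of 882 RPM and the longer ones 682 RPM. Without H1 the difference was -17.8 RPM (p = 0.0127), and when each library was summarised by its mean log10 RPM instead of a median, over all 24 libraries, it was -0.0333 (p = 1e-05, the smallest value the resampling can give). The sign turned in 2 other settings of the same permutation test. The median difference was 4.56 RPM in 6 to 11 libraries (p = 0.875), and 0.978 RPM against spans of 1000 bp to under 5000 bp (p = 0.963).

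The 10 short circRNAs with the highest mean RPM were rings of IL27RA, C1H18orf25, TULP3, FES, ELL2, UNKL, TAX1BP1, BUD23 and CCAR1 and an intergenic circRNA on the X chromosome. Their means over 24 libraries lay between 200.4 and 285 RPM. They are given as a description, because level takes part in detection. The IL27RA ring (chr2:65141048-65141379, minus strand, exons 5 and 6) led with 285 RPM. IL27RA is a subunit of the interleukin 27 receptor. It had 20 to 231 reads in H1 to H5 and 60 to 606 reads in L1, L3, L5, L9, L10 and L12, so that the groups overlapped (5 and 6 libraries).

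In some of this set a single library held much of the level. The TULP3 ring (chr5:67208993-67209700, minus strand) had 781 reads in H1, 24 in H3, 57 in H4 and 54 to 273 in 5 L libraries. TULP3 is an adaptor of ciliary protein traffic. The TAX1BP1 ring (chr18:44837492-44838430, minus strand) had 1113 reads in H12 and 10 to 283 in the 8 other libraries with reads. TAX1BP1 is a receptor of selective autophagy. The BUD23 ring (chr3:10962194-10962666, plus strand) was spread more widely, with 14 to 706 reads in 6 H libraries and 23 to 79 in 4 L libraries. BUD23 methylates ribosomal RNA, and its ring averaged 324 RPM over the H libraries and 77.4 RPM over the L libraries, with p = 0.285 in the quasi-likelihood test of edgeR (adjusted p = 0.9997).

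More short circRNAs were detected in the L libraries than in the H libraries, by a margin that did not pass the correction for 4 measures. The H libraries held 36 to 182 of them (median 103, mean 115 ± 45.7, SD, n = 12). The L libraries held 79 to 408 (median 152, mean 194 ± 108, SD, n = 12). The difference of 78.75 had p = 0.0273 in a two-sided permutation test and an adjusted p of 0.0542 over the 4 library measures. The ranges overlapped, with 5 L libraries above every H library and 8 above the H median. The 4 largest numbers were 408 in L12, 311 in L11, 298 in L8 and 277 in L3, and these 4 libraries also listed the most circRNAs of all spans. They held 1294 of the 2328 detections of short circRNAs in the L group (55.6%). Without them the difference was 14.0 (p = 0.528), which follows in part from leaving out the libraries with the highest numbers.

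The share of short circRNAs moved in the same direction. They made up 5.69% ± 1.14 (SD, n = 12) of the circRNAs detected in an H library and 6.79% ± 0.956 (SD, n = 12) in an L library, a difference of 1.09 percentage points (p = 0.0195, adjusted p = 0.0542). The share was above the H median in 10 of 12 L libraries. Without L3, L8, L11 and L12 the difference was 0.751 points (p = 0.143). Among detected circRNAs of 2 to 11 libraries alone, short ones made up 10.6% ± 1.82 and 11.9% ± 1.25 (p = 0.0494, outside the 4 corrected measures). For all circRNAs under 1000 bp, at any detection, the shares were 12.7% ± 1.67 and 13.3% ± 1.18 (p = 0.326). The short circRNAs were chosen by reads in 2 to 11 libraries, so their number and share per library draw on those same detections. That rule used no group label, and the p-values of both measures are given as a description. The longer circRNAs of 2 to 11 libraries also had a higher mean number in the L group, 1438 ± 836 against 950 ± 299 (p = 0.0655).

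The summed share of reads did not differ between the groups beyond its spread. Short circRNAs took 3.88% ± 0.628 of the junction reads of an H library and 4.31% ± 0.844 of those of an L library (p = 0.172). The median level of a detected short circRNA averaged 216 ± 100 RPM in L libraries and 337 ± 190 RPM in H libraries, a difference that did not pass the correction (-121 RPM, p = 0.0407, adjusted p = 0.0542) and had p over 0.05 in 17 of 30 alternatives. With libraries thinned to equal reads it was -115.6 RPM (p = 0.0564). The longer circRNAs had 245 ± 120 RPM in L libraries and 324 ± 132 RPM in H libraries. In raw reads, the median of a detected short circRNA was 105 ± 49.9 per H library and 60.4 ± 15.6 per L library (difference -44.75, p = 0.00708, outside the 4 corrected measures). The highest H value was 882 RPM in H1, the library with the fewest circRNAs (956) and the fewest short ones (36). Without H1 the difference was -71.6 RPM (p = 0.0796), and without the 4 L libraries it was -71.1 RPM (p = 0.350).

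The number detected moved with depth in the L group. Across the 12 L libraries, the number of short circRNAs and the junction reads of the library had Pearson's r = 0.914 (permutation p = 0.0006) and Spearman's rho = 0.783 (p = 0.0052). In the H group r was 0.301 (p = 0.329) and rho 0.172 (p = 0.587), and over all 24 libraries r was 0.594 (p = 0.0032) and rho 0.410 (p = 0.0446). Adjusted over these 4 relations, p was 0.0024, 0.329 and 0.0064 for r and 0.0208, 0.587 and 0.0892 for rho. Without H3 and L12, the libraries farthest from the median depth, r was 0.506 (p = 0.0220, adjusted p = 0.0293) and rho 0.263 (p = 0.242). With every library thinned to 128644 reads, the group difference in number was 75.5 (p = 0.0275).

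**Figure D3:**
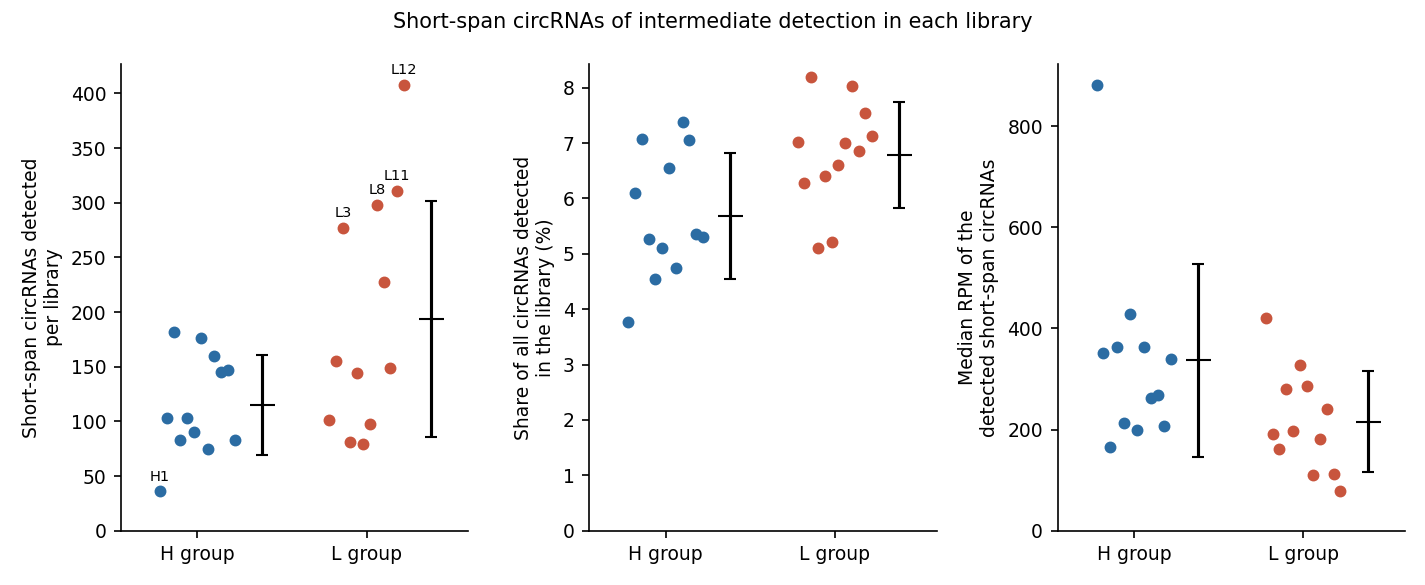
Number of short-span circRNAs detected (left), their share of all detected circRNAs (middle, %) and the median RPM of those detected (right) in each library; each point is a library, and the cross and bar are the group mean and SD (n = 12). L3, L8, L11 and L12 lie at 277 to 408 circRNAs, above every H library, and H1 lies lowest in number with 36 and highest in median level with 882 RPM.

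For single circRNAs, detection was shifted towards the L group about as it was for all circRNAs of this detection. Reads were found in more L than H libraries for 524 of the 913 (57.4%, against 54.3% of all 8010 circRNAs in 2 to 11 libraries). Reads were found in more H libraries for 145 (15.9%, against 19.5%), and in as many of each for 244 (26.7%, against 26.2%). The L libraries alone had reads of 206 short circRNAs (22.6%, against 19.5%), and the H libraries alone of 49 (5.37%, against 6.55%). Fisher's exact test on these library counts cannot reach 0.05 for the 627 short circRNAs in 2 to 4 libraries.

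In the remaining 286, 20 had p under 0.05 in Fisher's exact test (6.99%), all with more L libraries, against 4.04% of the 2522 circRNAs in 5 to 11 libraries and 0.737% of all 17379. None had more H libraries, against 0.198% of the 2522 and 0.0288% of all. After Benjamini-Hochberg adjustment over all 17379 circRNAs, 0 short circRNAs and 0% of all circRNAs remained. Of the 20, 13 had no reads in any H library, 3 had reads in 1 and 4 in 2. The 4 libraries L3, L8, L11 and L12 held 52 of their 125 detections in the L group (41.6%). With 1 L library left out, the number under 0.05 was 34 to 41 in 10 of 12 cases, because 4 of 11 against 0 of 12 libraries then passes. Without these 4 libraries, 14 short circRNAs had p under 0.05, 13 of them with more L libraries.

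**Figure D4:**
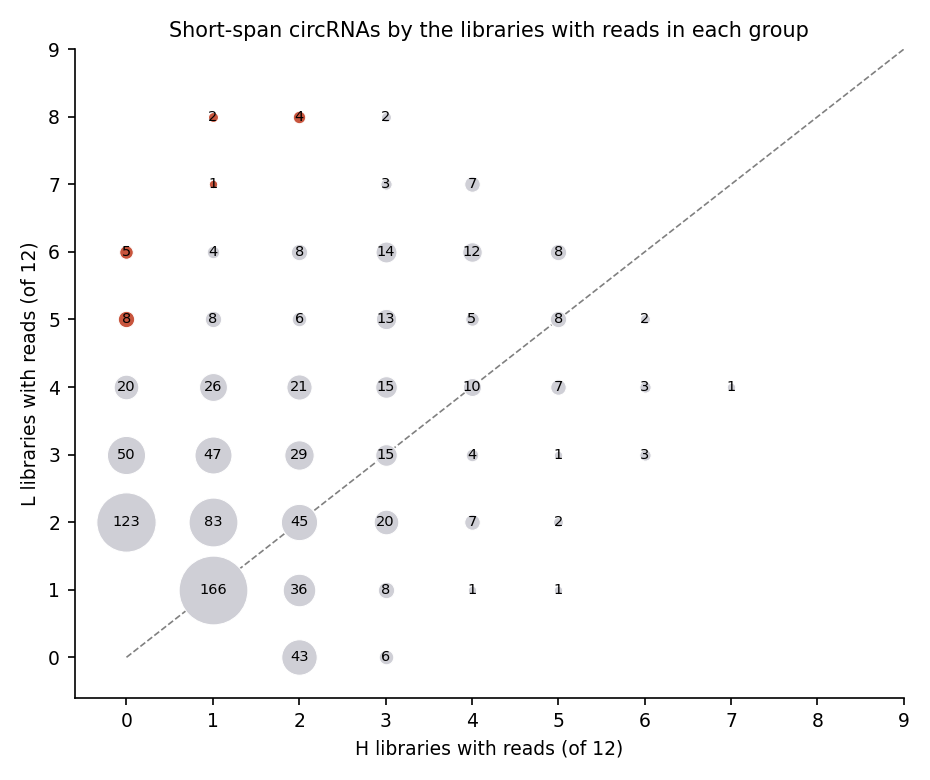
Short-span circRNAs by the number of H libraries (horizontal) and L libraries (vertical) with reads; the area of each circle grows with the number of circRNAs, which is printed in it, and the dashed line marks equal numbers. Coloured circles are combinations with p under 0.05 in Fisher's exact test, which hold 20 circRNAs, all above the line.

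In reads, 7 of the 202 short circRNAs with reads in at least 6 libraries were called by the quasi-likelihood test of edgeR, which asked for an unadjusted p under 0.05 and a change of 1.5-fold up or 0.67-fold down, or more. Of these, 6 were higher in the L group (2.97%, against 1.5% of all 2793 circRNAs tested) and 1 was lower (0.495%, against 0.143%). The number called was 1 without L9 or L10, 3 without L8, L11 or L12, and 4 without L2, L3, L4 or L7. The adjusted p was under 0.05 for 5 (2.48%, against 0.716%), and these shares are printed as a description only, for the reason given below. The median log2 fold change, L over H, was 0.51 for the short circRNAs, 0.38 for the longer ones and 0.35 for all tested. With library totals in place of TMM factors, the median of all fell to 0.09 and that of the short circRNAs to 0.23, with 119 of 202 above 0 in place of 128.

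The 5 with an adjusted p under 0.05 had no reads in any H library and reads in 6 L libraries. They met the minimum of 6 libraries through the L group alone, so the pattern that let them into the test is the one it called, and nothing is read from their number. The same adjusted p of 0.0213 stood for all 5, and each had p = 0.0137 in Fisher's exact test. Fitted fold changes against a group at 0 depend on the prior count, so bounds are given instead, with 3 reads in each H library as the floor (mean 10.8 RPM). These bounds cover counting error in the H libraries only, and not the spread among L libraries. They describe circRNAs picked by their lack of H reads and are not a measure of effect. The adjusted call was lost in each other tool run: with DESeq2 the adjusted p of the 5 lay between 0.196 and 0.9999, and with the edgeR exact test between 0.271 and 0.312. When any of its 6 L libraries was left out, a circRNA had reads in 5 libraries and was no longer tested.

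The CCAR1 ring (chr14:71852747-71853159, plus strand) had 248 reads in L7, 135 in L8, 134 in L9, 47 in L10, 101 in L11 and 44 in L12, a mean of 201 ± 371 RPM in the L group (SD, n = 12). This was at least 18.6-fold higher than the floor of the H group, and at least 9.34-fold without L7. CCAR1 is a coactivator of transcription that also takes part in apoptosis and splicing. The 2 other short circRNAs of CCAR1 were detected in both groups. That of exons 17 and 18 (chr14:71881656-71882377) had reads in 5 H and 6 L libraries, and that of exons 3 and 4 (chr14:71844195-71844793) in 4 H and 7 L libraries. Their mean levels were 222 and 178 RPM, and 133 and 181 RPM, in the H and L groups.

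The BBS2 ring (chr6:18553565-18553968, minus strand) had 85 reads in L4, 70 in L5, 213 in L8, 161 in L9, 86 in L10 and 106 in L11. Its mean in the L group was 167 ± 187 RPM, at least 15.4-fold higher than the floor of the H group. BBS2 is a subunit of the BBSome, which carries cargo into and out of cilia. The EARS2 ring (chr3:22660735-22660890, plus strand) is exon 2 of the gene, which encodes the mitochondrial glutamyl-tRNA synthetase. It had 28 reads in L1, 122 in L3, 107 in L4, 22 in L7, 108 in L9 and 130 in L10 (140.03 ± 166 RPM, at least 12.9-fold higher).

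The TTC17 ring (chr2:18855295-18856176, minus strand) was the weakest of the 5, with 11 to 151 reads in L2, L8, L9, L10, L11 and L12 and a mean of 71.7 ± 108 RPM (at least 6.61-fold higher, and at least 4.50-fold without L8). TTC17 takes part in actin organisation and the formation of cilia. The intergenic circRNA (chr13:26364791-26365617, plus strand) had 35 reads in L2, 17 in L6, 256 in L9, 77 in L10, 80 in L11 and 48 in L12 (124 ± 208 RPM, at least 11.4-fold higher, and at least 6.39-fold without L9). Libraries L9 and L10 carried reads of all 5.

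The other 2 calls were not upheld by the adjustment. The CAPNS1 ring (chr6:45515047-45515523, plus strand) had 39 reads in H11 and 28 to 334 reads in 8 L libraries, 6.66 ± 23.1 RPM against 150.2 ± 178 RPM. Its log2 fold change was 4.43 ± 2.15 (SE) with p = 0.0396 and an adjusted p of 0.9997 in the quasi-likelihood test. Fisher's exact test gave p = 0.00942, and 0.109 without L3, L8, L11 and L12. CAPNS1 is the regulatory subunit of the calpain proteases. The MAP9 ring (chr8:42692208-42692667, minus strand) went the other way, with 104 reads in H2, 70 in H4, 45 in H5, 96 in H6, 63 in H11 and 17 in L11. Its levels were 119 ± 163 RPM and 3.18 ± 11.03 RPM, with a log2 fold change of -4.33 ± 2.13 (SE), p = 0.0418 and an adjusted p of 0.9997. It was not called by DESeq2 or the edgeR exact test, nor when any of its 6 libraries or any other L library was left out. MAP9 binds microtubules of the mitotic spindle.

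Detection and mean level did not always point the same way. The intergenic circRNA on the X chromosome (chrX:13044137-13044491, minus strand) had reads in 1 H and 8 L libraries (Fisher's exact test, p = 0.00942). Its single H library, H1, held 705 reads and the L libraries 18 to 390, so that the H mean was 290.3 ± 1006 RPM and the L mean 239 ± 461 RPM. In the quasi-likelihood test it had a log2 fold change of 0.58 ± 1.71 (SE) and p = 0.735 (adjusted p = 0.9997).

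The remaining circRNAs of smallest p were detected in 1 or 2 H libraries. CADPS2, which primes dense-core vesicles for release, had a ring with reads in 1 H and 7 L libraries (Fisher's exact test, p = 0.0272). Rings of CANX, a chaperone of the endoplasmic reticulum, and CEP350, a centrosomal protein, had reads in 2 H and 8 L libraries each (p = 0.0361 by the same exact test). YAF2, MAPK6 and SPEN followed in the test of reads with p = 0.0873, 0.105 and 0.113, and their log2 fold changes were 3.48, 3.27 and 3.25 (adjusted p = 0.9997 for each in edgeR). Without L3, L8, L11 and L12, the p of Fisher's exact test was 0.109 for CADPS2, 0.0623 for CANX and CEP350, 0.0491 for CCAR1 and TTC17, and 0.0181 or less for BBS2, EARS2 and both intergenic circRNAs.

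**Figure D5:**
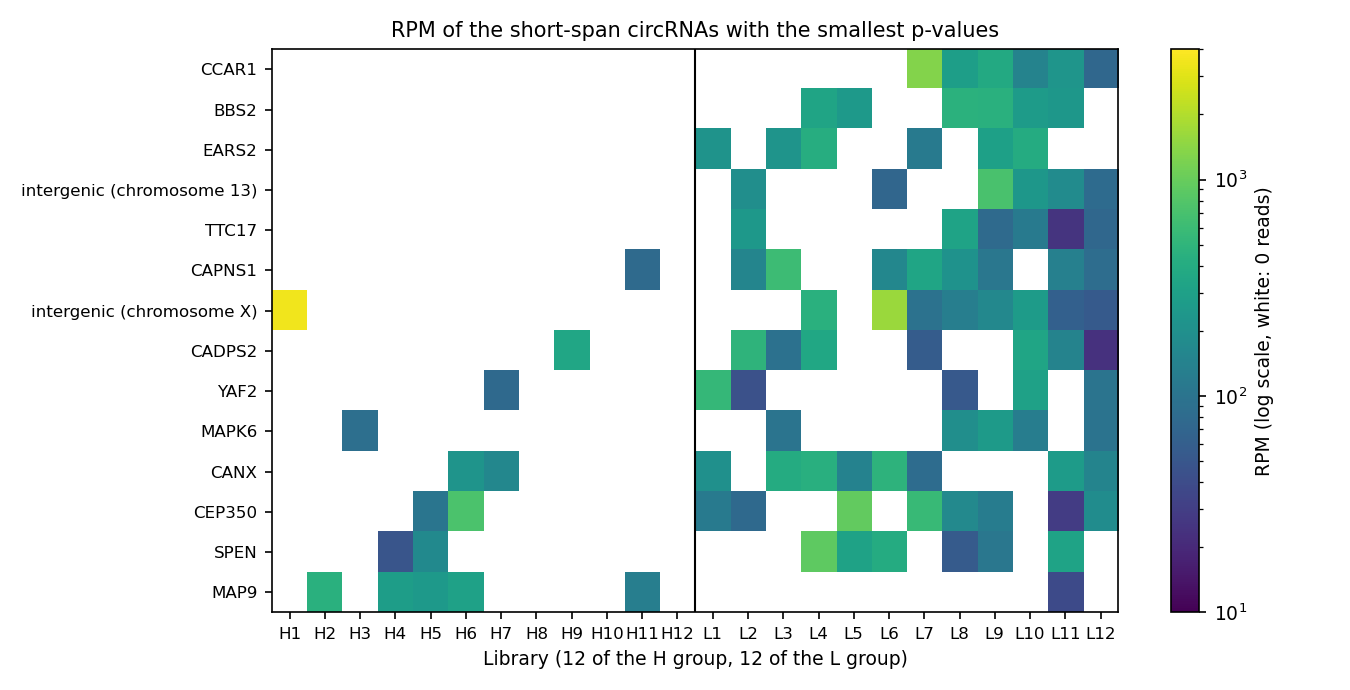
RPM in each library (columns, colour on a log scale, white for 0 reads) of the 14 short-span circRNAs with the smallest p in Fisher's exact test or the quasi-likelihood test, ordered by the number of H libraries with reads. The first 5 rows have no reads in H libraries and reads in 6 L libraries, and MAP9, in the last row, has reads in 5 H libraries and 1 L library.

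Of the many circRNAs that the study's text or tables list, chosen there on these libraries, those of MTR, MX2 and MUC4 were looked at besides CCAR1, and the host name MUC4 comes from the annotation used here. The rings of CCAR1 and BBS2 called above are also in the study's table of top differentially expressed circRNAs. Its enrichment terms for the hosts of such circRNAs also name EARS2 and TTC17, without giving the rings. The MTR ring of exon 11 (chr14:54611059-54611244, minus strand) had reads in 3 H and 4 L libraries, with 187 ± 488 RPM and 36.3 ± 60.5 RPM. A circRNA within an intron of MTR (chr14:54638310-54639066, minus strand) had reads in L libraries alone, with 176 in L3, 410 in L6, 17 in L7, 45 in L8 and 14 in L12 (Fisher's exact test, p = 0.0373). MTR is methionine synthase. The MUC4 ring (chr13:134233747-134234461, plus strand) had 305 reads in L8 and 778 in L12 and none elsewhere (p = 0.478 by the exact test). MUC4 is a membrane mucin of epithelia. The intergenic circRNA chr13:204825458-204826392 (plus strand), which the study assigns to MX2, lay outside the end of MX2 in the annotation used here. It had 27 reads in L1, 20 in L4, 210 in L8, 130 in L9 and 575 in L12, with none in any H library (Fisher's exact test, p = 0.0373). Its L mean was 173 ± 297 RPM, at least 15.9-fold higher than the floor of the H group, and at least 9.26-fold without L12. MX2 encodes an antiviral GTPase that interferon induces.

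Among 8 lists of 40 to 81 host genes, RNA splicing and RNA binding, the longest list, held the most short circRNAs, given here as counts without a test. Of the 81 genes listed for RNA splicing and RNA binding, 21 hosted 24 short circRNAs (2.63%, against 1.41% of the longer circRNAs and 1.45% of all). In that list 12 had reads in more L libraries, 3 in more H libraries and 9 in as many of each, against 54.3%, 19.5% and 26.2% of all circRNAs in 2 to 11 libraries. Of the 8 tested by reads, 1 was called, the CCAR1 ring above, which passed the filter through L libraries alone (1.5% of all 2793 circRNAs tested were called higher in L). MBNL2, a regulator of alternative splicing, had a ring with reads in 4 H and 6 L libraries (159 RPM over all 24, 210 RPM over H and 108 RPM over L libraries). TARDBP, which encodes the RNA-binding protein TDP-43, had a ring with reads in 5 H and 6 L libraries (118 RPM over all 24, 94.9 RPM over H and 140 RPM over L libraries).

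Ubiquitin ligase and proteasome genes hosted 20 short circRNAs (2.19%, against 2.21% of the longer ones), 9 with more L and 4 with more H libraries. The quasi-likelihood test of edgeR covered 6 of these 20 and called 0, against the same 1.5% of all tested. HUWE1, a ubiquitin ligase, led with 103 RPM (3 H and 3 L libraries), a level that leaned on H6, with 368 reads there and 19 to 209 in the others. PI3K-Akt signalling genes hosted 9 (0.986%, against 1.10%), 6 with more L and 1 with more H libraries, and the same test covered 5 and called 0. The highest were rings of the acetyltransferases EP300 (149.7 RPM) and CREBBP (131.9 RPM), each with reads in 3 H and 6 L libraries. The EP300 ring had 278 reads in H1, and averaged 214 RPM over H and 85.4 RPM over L libraries. This CREBBP ring averaged 113 RPM over H and 151 RPM over L libraries. A second CREBBP ring had 65.3 RPM with 4 H and 6 L libraries. Neither CREBBP ring has the ends of the study's circ-CREBBP, which is a different circRNA. MTOR, the kinase of growth control, had a ring in 3 H and 4 L libraries (75.4 RPM).

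Cilium and flagellum genes hosted 6 (0.657%, against 1.03%), 5 with more L libraries and 1 with as many of each. Of the 2 tested by reads, the BBS2 ring was called, which also passed the filter through L libraries alone (against 1.5% of all). CEP135, a protein of the centriole, had the highest level of the list with 155 RPM (3 H and 6 L libraries). DNAH10, a dynein heavy chain of the flagellum, had 44.6 RPM (2 H and 3 L libraries), with 144 reads in H2 and 20 to 46 in the others. The H and L means were 68.7 and 20.5 RPM for DNAH10 and 19.5 and 7.18 RPM for TTC21B. The other rings of the list had higher L means. Germ cell and sperm genes hosted 4 (0.438%, against 0.634%), which were STAG3, MCM8, SPAG9 and ADAM3A, 3 with more L and 1 with more H libraries. STAG3, a meiotic cohesin subunit, had reads in 6 H and 3 L libraries (100.2 RPM). SPAG9 had reads in 4 L libraries alone, with 95 in L3, 48 in L5, 56 in L10 and 51 in L12. Epithelial and accessory gland genes hosted 5, from CDH1, ESRP1, GRHL2, MUC4 and TJP1, and the leukocyte and interferon response lists hosted 0, against 2 and 7 longer circRNAs. With the assignment of the study, the interferon response list would hold 1, the circRNA next to MX2. The summed level of a list, as the mean over H and over L libraries, was 118 and 210 RPM for the epithelial list, and of the latter the MUC4 ring in L8 and L12 made up 164 RPM. It was 212 and 420 RPM for the cilium list (212 and 253 RPM without the BBS2 ring), 157 and 209.9 RPM for the germ cell list and 1107 and 1233 RPM for the RNA-binding list. It ran the other way for PI3K-Akt signalling (723 and 499 RPM) and for ubiquitin ligases and the proteasome (864 and 709 RPM), and none of these sums was tested.

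The 7 antisense circRNAs lay opposite PHF3, BBIP1, PHACTR3, NECAB1, LOC106507803 and, with 2 circRNAs, PSP-II. PSP-II is a spermadhesin, a main protein of boar seminal plasma. Their strand was taken from the AG and GT bases outside their ends and not from reads, so reads of the gene and of the opposite strand could not be told apart. The PSP-II pair share their start in the direction of transcription (chr14:132281522-132281719 and chr14:132281580-132281719, minus strand). The longer had 204 reads in H4, 99 in H10, 59 in L5 and 11 in L7, and the shorter 49 in L11 and 22 in L12. Antisense circRNAs made up 0.767% of the short circRNAs of 2 to 11 libraries and 12.1% of the short circRNAs found in 1 library.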

How the data were processed

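The values the authors deposited are raw counts: whole numbers of back-splice junction reads, with no normalization. According to the study's methods, a circRNA was kept when find_circ and CIRI2 both found it with at least 2 junction reads, and libraries were made with the SMARTer Stranded Total RNA-Seq kit. The submitters' processing notes name the genome build susScr11. The 24 long RNA libraries were assigned to their group and replicate number from the labels, and 0 columns were without a library. The small RNA counts were not used here.

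CircRNAs were chosen by reads in 2 to 11 libraries and a span under 1000 bp. These circRNAs, the gene lists and the tests were chosen with earlier results of these data known. Host genes were taken from NCBI Annotation Release 106 (Sscrofa11.1). Exonic means that exons of 1 gene on the strand of the circRNA hold both ends, and the strand came from the AG and GT next to them. The 5 on unplaced scaffolds were not annotated.

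Reads were tested with edgeR 4.0.16 in R 4.3.3 (TMM, quasi-likelihood test, no covariate) over the 2793 circRNAs with reads in at least 6 libraries, a filter that uses no group labels but that a circRNA without H reads passes only with reads in 6 L libraries, and adjusted by Benjamini-Hochberg over all tested. Detection was compared by a two-sided Fisher's exact test over all 17379 circRNAs, and library values by two-sided permutation tests with 100000 resamples (10000 for correlations) using SciPy 1.17.1, NumPy 2.4.6, pandas 2.3.3 and Python 3.11.15. The quasi-likelihood test alone was also run on simulated counts, drawn with a common dispersion. That simulation did not model the many zeros of these data, so nothing is read from it here. PCR copies are not independent molecules, so limits from 3 reads cover counting error only.

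Named were the 10 circRNAs of highest mean RPM, the 10 of smallest Fisher p (ties by the larger difference in mean RPM), the 10 of smallest quasi-likelihood p, up to 4 examples per gene list, host genes with at least 4 short circRNAs, circRNAs next to the limits, and hosts MUC4, MTR, CCAR1 and MX2. The circRNA that the study assigns to MX2 is intergenic in this annotation, and no host had 4. The CUX1, LRRC71, COG3, MAN2B2 and antisense examples and the 8 hosts with 3 were added after their values were seen. Alternatives were DESeq2 1.42.0, other scalings, filters and tests, thinning, 10 reads as detection, a span limit of 500 bp, a block on the replicate number and leaving out libraries. The numbers come from the labels and do not mark a shared boar.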

Additional observations from a re-analysis of the deposited data

How the results depend on the processing

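The share of short circRNAs in junction reads stayed beyond an unadjusted p of 0.05. Their share among detected circRNAs stayed under it in all alternatives but 1, an L group without L3, L8, L11 and L12 (0.751 points, p = 0.143). In the main setting its permutation test had an adjusted p of 0.0542, and most alternatives were refits of the same libraries with 1 left out. With each library left out in turn, the share among detected circRNAs was 0.920 to 1.25 points and the share in reads 0.252 to 0.532 points. The difference in number was 59.3 to 89.2 and had p between 0.0531 and 0.0545 without L3, L8, L11 or L12, and without all 4, which had the highest numbers, it was 14.0 (p = 0.528).

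The difference in median RPM was -139.8 to -71.6 with 1 library left out, with p over 0.05 in 13 of 24 such fits and -71.6 RPM without H1. It was -115.6 RPM with libraries thinned to the smallest (p = 0.0564), -116.5 RPM with detection at 10 reads (p = 0.0671), -87.8 RPM with a span limit of 500 bp (p = 0.0593) and -71.1 RPM without L3, L8, L11 and L12 (p = 0.350). Against longer circRNAs, the difference was -17.8 to -5.07 RPM with 1 library left out, lowest without H1. It was -0.0333 when libraries were summarised by mean log10 RPM instead of a median (p = 1e-05), -29.0 RPM with a span limit of 500 bp (p = 0.00012) and -25.3 RPM in 2 to 5 libraries (p = 0.00277), but 4.56 RPM in 6 to 11 libraries (p = 0.875) and 0.978 RPM against spans of 1000 bp to under 5000 bp (p = 0.963). The cause of these changes was not tested.

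The number of short circRNAs with p under 0.05 in Fisher's exact test was 20 to 41 with 1 library left out. It was 34 to 41 without L1, L2, L3, L4, L5, L6, L7, L9, L10 or L11, because 4 of 11 against 0 of 12 libraries then passes. It was 19 with detection at 10 reads, 20 with thinned libraries and 14 without L3, L8, L11 and L12, where a FES ring had more H libraries.

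The number called in the quasi-likelihood test was 7, with 12 in DESeq2, 258 with no filter, 38 with reads in at least 4 libraries and 5 in the edgeR exact test. Of all circRNAs, 46 of 2793, 91 of 2793, 10517 of 17379, 240 of 4457 and 28 of 2793 were called in that order, and adjusted p was under 0.05 for 5, 0, 257, 33 and 0 short circRNAs. The count was 1 to 9 with 1 library left out, with 4 without L2, L3, L4 or L7, 3 without L8, L11 or L12, and 1 (CAPNS1) without L9 or L10. Without L3, L8, L11 and L12 it was 1, the FES ring, lower in the L group. The filter of edgeR's filterByExpr kept 963 circRNAs and 0 short ones, so it gave no value.

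With the replicate number as a block, 20 of 202 short circRNAs were called, all higher in the L group, beside 191 of all 2793 circRNAs, and 0 had an adjusted p under 0.05. The block gave p = 0.0222, 0.00796, 0.104 and 0.00568 for the 4 library measures. Same-numbered libraries of the 2 groups correlated over 0.1 in 1 of 12 pairs, so the samples share only a number, and 2 of 12 libraries correlated best with their own number. Depth limits what 0 reads mean: most values were 0, and a count of 0 allows a level of up to 4.91 to 23.3 RPM, depending on the library.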
